A study of Ovis aries with 56 samples.

Results

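The sex difference in the right amygdala of sheep treated with a gonadotropin-releasing hormone agonist (GnRHa) was described across 701 named autosomal genes, by comparing 5 arrays of treated ewes with 6 arrays of treated rams. The genes were those of the 803 named on the array whose probe could be tested (718) and which the reference annotation places on an autosome. Of the 14 arrays of these groups, 11 were kept, because the added spike-in RNAs of the other 3 did not follow the series median. The rule that kept these arrays and the 701 genes used no measured sex difference. Many of the genes described singly were picked by lowest p of this difference. The genes and gene lists were chosen with earlier results of these data known.

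All animals were Scottish Mule Texel crosses from same-sex twin pairs, of which 1 twin was treated and the other left untreated. The treated ewes received a 3.6 mg implant of goserelin acetate every 4 weeks from 28 weeks of age, and the treated rams received the same implants from 8 weeks. All were sampled at 50 weeks, so the ewes had been under treatment for 22 weeks and the rams for 42 weeks. Ewes and rams were kept apart throughout. Sex, the age at which treatment began, its length and the housing therefore cannot be told apart in any value below. Each array held RNA of 1 animal against a pool made from both sexes, both sides and both treatments. A value is the deposited log2 ratio of sample to pool, a difference is ewes minus rams on that log2 scale, and the 11 arrays came from 11 animals of 11 twin pairs.

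Continuous exposure to a GnRH agonist first stimulates and then desensitises the pituitary GnRH receptor, which lowers the release of luteinizing and follicle-stimulating hormone and with it the output of sex steroids. The amygdala, in the temporal lobe, processes emotional and social cues and carries receptors for sex steroids. In brain, interferon-response and antigen-presentation genes are expressed in microglia, the resident macrophages, and can be induced in other cells. In pieces of whole tissue, fewer cells of a type and less RNA per cell cannot be told apart.

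The 11 arrays had spike-in slopes of 1.01 to 1.09, where the 3 arrays left out had absolute slopes of 0.095 to 0.147. Between 7.38 and 14.4% of the probes had no value on the kept arrays. The number of arrays limits the precision of the values, and for dim genes low signal does too. All 5 ewe arrays carried the sample in Cy5, and the rams had 4 Cy5 and 2 Cy3 arrays, so dye was a term of the model. Ram replicate 6 had a negative slope, was multiplied by -1 and its dye taken as the opposite of its label. The labels do not state whether a ratio is sample over pool. That reading was taken because the unnamed probe FE028749 stood at -3.74 to -2.60 in ewes and 0.248 to 0.876 in rams, and the opposite reading would put ewes far above a pool that holds ewe RNA.

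Low signals on these arrays fall on a coarse grid. On each array, 47.2 to 56.2% of the values were identical to 6 decimals with those of at least 4 other probes. Of the 701 genes, 228 had only such shared values in the 2 groups and 248 had none. Brightness is the authors' mean log2 intensity, with a median of 5.95 over the probes tested, and 388 of the 701 genes lay below it. Of the genes described below, SLC7A5, CHIA, BGLAP, POU1F1, PTHLH, TYR, MYF5, TEK, TIE1, TGFBR1, LHCGR, GNRHR, CYP19A1, PGR, PER1 and ITGAM had only shared values. So had TGFA, CD4, MYOD1, BMP4 and STAR.

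Few differences passed the test. The threshold for a call was an adjusted p of 0.05 in limma's moderated test, by Benjamini-Hochberg over 12915 probes. In all, 9 probes were called (0.0697%), 8 of them higher in ewes (0.0619%) and 1 lower (0.00774%). The lower one was FE028749, the probe used above for the direction of the ratios, at -3.82. Of the higher ones, the unnamed probe CU655072, at 2.15, had the lowest p. Both were also called in untreated right amygdala, at -3.91 and 1.74, and in treated left amygdala, at -4.86 and 1.67. Under most other settings fewer than 9 probes were called, such as 0 with all 56 columns and 3 without ewe replicate 4. Some settings gave more, such as 127 with array weights. With the columns scaled to a common spread 38 were called, 28 of them higher. Among the 701 named genes 1 was called, CTSS, a share of 0.143%. At an unadjusted p below 0.05, 39 named genes (5.56%) were higher in ewes, against 6.06% of all probes, and 51 (7.28%) were lower, against 5.36%. Both directions together held 1475 probes, where chance alone would give about 646, so these shares are not the chance level. What lay behind the excess was not tested. Of the 701 genes, 319 had a positive and 382 a negative difference, and the median was -0.04 over the named genes and -0.00 over all probes. Counts of gene lists below are to be read against these shares. Of the 503 named genes measured on all 11 arrays, 4 had every ewe array above every ram array (0.795%), against 0.877% of the 10267 such probes. These were CTSS, DNMT1, CAPN3 and RPS12. A further 2 genes, MIF and SLIT3, had every ewe array below every ram array (0.398%), against 0.808% of the probes. Those shares were near the background. On a second probe of CAPN3, RPS12 and SLIT3 the groups overlapped.

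**Figure D1:**
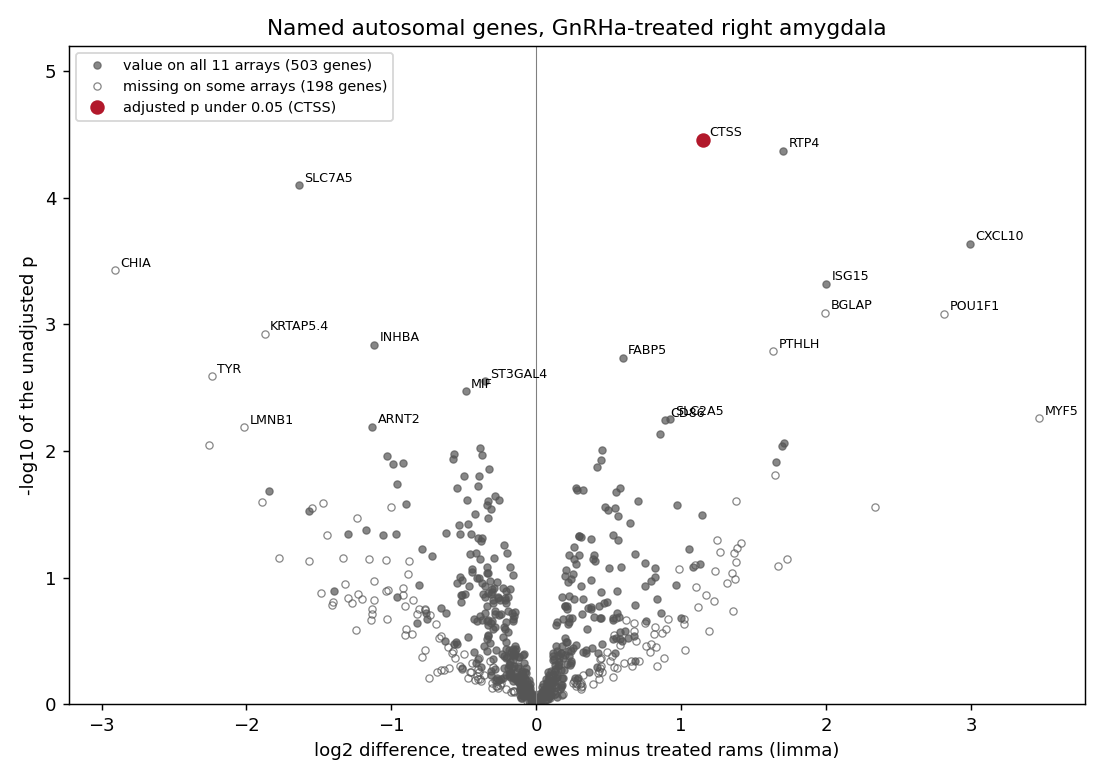
Each point is 1 of the 701 named autosomal genes, with the log2 difference (ewes minus rams) on the horizontal axis and -log10 of the unadjusted p of limma's test on the vertical axis. CTSS is the 1 gene past the adjusted threshold, and RTP4, SLC7A5 and CXCL10 lie next to it.

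CTSS, which encodes cathepsin S, a lysosomal protease that processes the invariant chain of MHC class II in antigen-presenting cells, rose in ewes relative to rams. Its log2 ratios in ewe replicates 3 to 7 were 0.93, 1.59, 0.04, 0.45 and 0.76, and those of the rams had a lowest value of -0.55, a median of -0.35 and a highest of -0.22. Every ewe array lay above every ram array, and the ewes spread more widely, with means of 0.76 ± 0.57 (SD, n = 5) and -0.37 ± 0.14 (SD, n = 6). The fitted difference was 1.15 ± 0.24 (SE; limma adjusted p = 0.0498), just inside the threshold. The two-sided exact permutation test over the 11 arrays gave p = 0.00216, the smallest it can give, and the lowest value of that test after adjustment over the 701 genes was 0.303. Leaving out ewe replicate 4, the highest array, gave 0.94 (limma adjusted p = 0.208). When each of the 11 arrays was omitted in turn, the differences were 0.94 to 1.33 and the call was kept without ewe replicate 5 or 6 but lost in the other 9 fits.

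**Figure D2:**
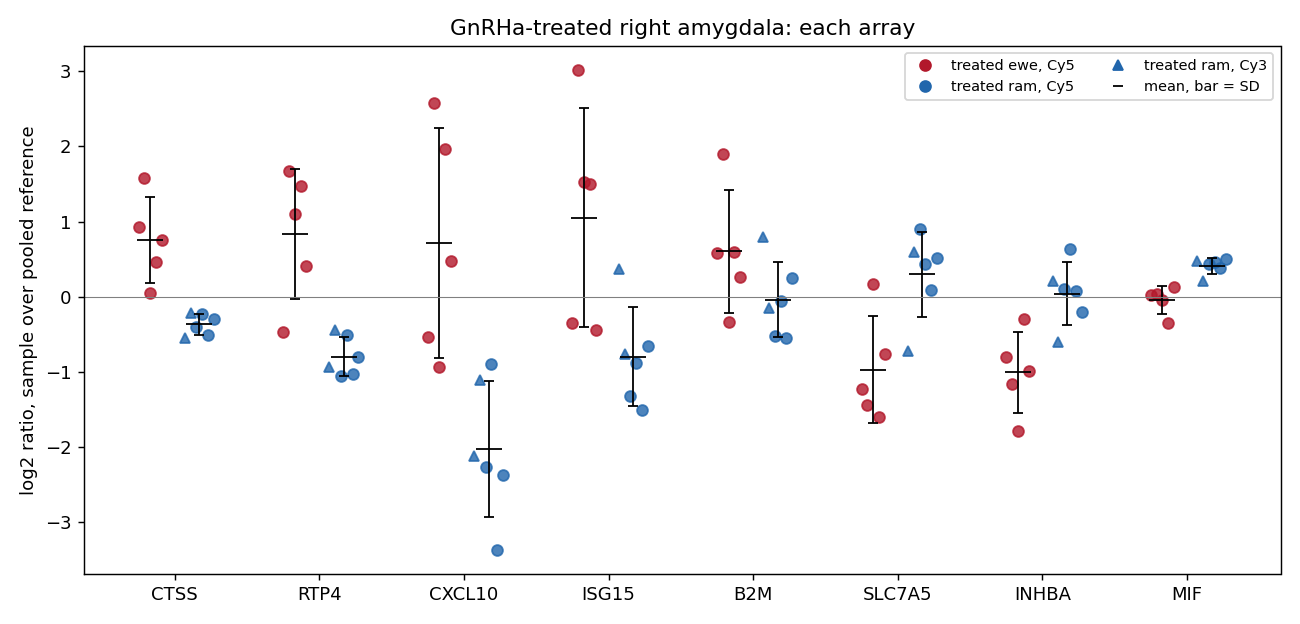
Log2 ratio of sample to pool on each array for selected genes, with ewes in red, rams in blue, Cy3 arrays as triangles and bars at each group's mean ± SD. For CTSS all 5 ewe arrays lie above all 6 ram arrays, and for MIF all 5 lie below.

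B2M, the light chain of MHC class I, had log2 ratios of 0.59, 1.90, -0.34, 0.60 and 0.26 in ewe replicates 3 to 7. The rams ran from -0.55 through a median of -0.10 to 0.79. The groups overlapped, with ewe replicate 4 the highest of all 11 arrays. The B2M difference was 0.85 ± 0.30 (SE; limma adjusted p = 0.267), and a second B2M probe gave 0.86. Without ewe replicate 4 it was 0.53. CTSS and B2M were the 2 tested members of the antigen presentation list.

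The interferon-response genes had higher values in some ewes than in rams, and no gene of the list passed the adjusted test as fitted. Under other settings, RTP4 passed with array weights, on completely measured probes, after quantile normalization, after scaling and without ewe replicate 3. CXCL10 passed with array weights, after quantile normalization and without ewe replicate 5, and ISG15 with array weights. The list held 11 tested genes, of which 10 had a positive difference, with a median of 0.68, against -0.00 over all probes. At an unadjusted p below 0.05, 3 of the 11 were higher in ewes and 0 lower, against 6.06% and 5.36% of all probes. RTP4, an interferon-induced chaperone of receptor transport, had log2 ratios of -0.46, 1.67, 1.10, 1.47 and 0.41 in ewe replicates 3 to 7. Its ram values ran from -1.05 through a median of -0.87 to -0.45. Ewe replicate 3 fell just inside the ram range, and the other 4 ewe arrays lay above it. The RTP4 difference was 1.71 ± 0.36 (SE; limma adjusted p = 0.0552), and a second RTP4 probe gave 1.61 (adjusted p = 0.0655).

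CXCL10, an interferon-induced chemokine that attracts T cells, had log2 ratios of -0.53, 2.58, -0.93, 1.96 and 0.47 in ewes. In rams it ran from -3.37 through a median of -2.20 to -0.90. Ewe replicate 5 lay just inside the ram range and the other ewes above it. The difference was 2.99 ± 0.73 (SE; limma adjusted p = 0.0847), and 2.51 without ewe replicate 4. ISG15, a ubiquitin-like protein that is attached to other proteins after interferon exposure, had log2 ratios of -0.36, 3.02, 1.53, 1.50 and -0.44 in ewes. In rams it ran from -1.51 through a median of -0.83 to 0.37. Ewe replicates 4, 5 and 6 lay above all rams, and replicates 3 and 7 within the ram range. The ISG15 difference was 2.00 ± 0.52 (SE; limma adjusted p = 0.118), and 1.50 without ewe replicate 4.

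MX1, MX2 and IRF1 were looked up after their values had been seen. MX1 and MX2 are dynamin-like antiviral proteins and IRF1 is a transcription factor of the interferon pathway. The MX1 difference was 0.68 ± 0.36 (SE), with ewe values of -0.09, 2.00, 0.90, 1.04 and -0.49 and ram values of -0.70 to 0.55, and was 0.36 without ewe replicate 4. MX2 differed by 0.58 ± 0.55 and by -0.05 without ewe replicate 4, which stood at 2.43 where the other ewes lay between -1.39 and -0.20. IRF1 differed by 0.86 ± 0.65, by 0.54 without ewe replicate 4 and by 0.55 without ram replicate 2.

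Ewe replicate 4 was the highest ewe array for 8 of the 10 interferon-response genes measured on all 11 arrays, and replicate 6 for the other 2. Over all 503 named genes measured on every array, replicate 4 was the highest ewe for 19.9%. The mean log2 ratio over the 10 genes was -0.41, 1.67, 0.37, 0.66 and 0.02 in ewe replicates 3 to 7 and lay between -0.82 and -0.21 in the rams. Ewe replicate 3 lay within the ram range and the other 4 above it. What set these ewes apart was not tested.

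**Figure D3:**
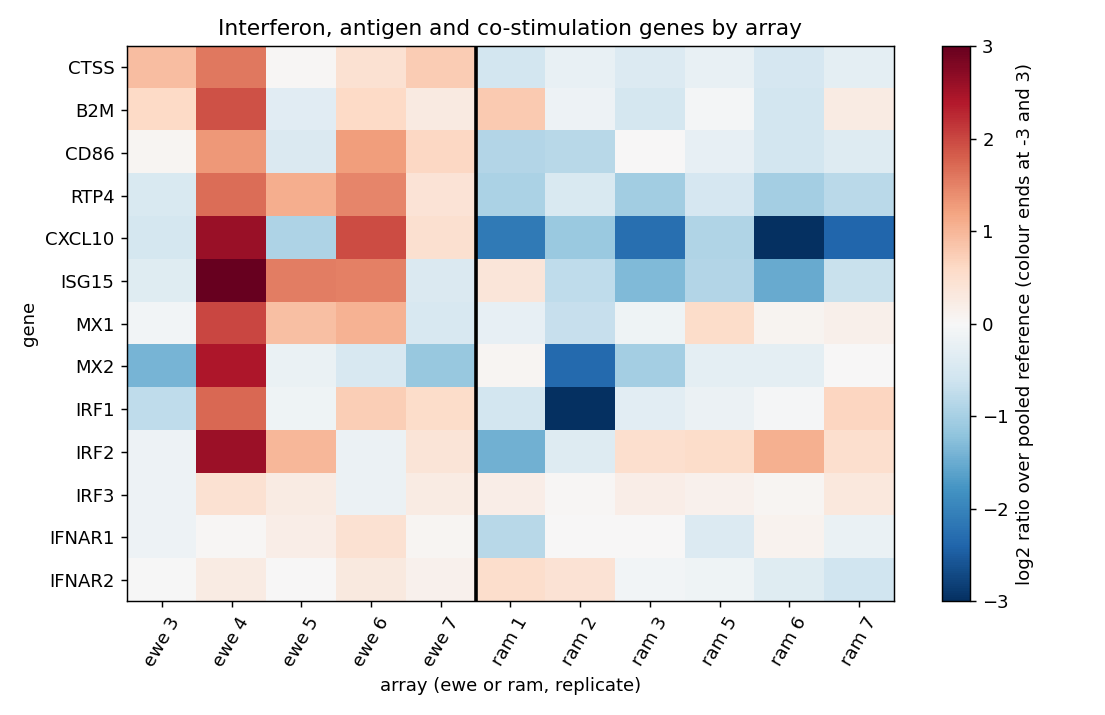
Colours give the log2 ratio of sample to pool (red above 0, blue below) of interferon-response and antigen-presentation genes and CD86 on each of the 11 arrays of treated right amygdala. Ewe replicate 4 is the highest ewe for 8 of the 10 interferon-response genes measured on all arrays, and ewe replicate 3 stands within the ram range for RTP4 and ISG15.

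Markers of microglia and of blood cells had no common direction. Of the 6 microglia and macrophage genes tested, 2 had a positive and 4 a negative difference, with a median of -0.14, and 0 had an unadjusted p below 0.05. TYROBP, a signalling adaptor of microglia, differed by -0.08 ± 0.11 (SE) and FCER1G, an Fc receptor subunit, by 0.22 ± 0.18. Both were among the brighter markers, at 6.81 and 7.59, while the values of ITGAM were all shared and 10 of the 11 values of CD14 were. The mean log2 ratio over the 4 genes of the list measured on all 11 arrays lay between -0.16 and 0.46 in ewes and between -0.30 and 0.22 in rams. TLR2, a receptor for bacterial lipoproteins, differed by 0.56 ± 0.28 and TLR4, the endotoxin receptor, by -0.85 ± 0.57, with a range of -1.43 (without ewe replicate 4) to -0.37 (without ram replicate 5) when 1 array was omitted. In the blood list, 3 of 6 genes were positive, with a median of -0.08. Its T cell gene CD3E differed by 0.32 ± 0.37 and its globin gene HBB by 0.28 ± 0.70. Of the 6, 1 was lower in ewes and 0 higher at an unadjusted p below 0.05, against 5.36% and 6.06% of all probes. This was AHSP, at -1.30 ± 0.62, with 9 of 11 values shared and -0.06 on another probe. CD4 differed by 1.25 ± 0.60, with every value shared. The part of these cells in the CTSS and interferon-response values was not tested further.

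Cytokine and chemokine genes had mostly positive differences, and none was called. Of 19 tested, 15 had a positive and 4 a negative difference, with a median of 0.26, where 319 of all 701 named genes were positive. At an unadjusted p below 0.05, 2 of the 19 were higher in ewes, against 6.06% of all probes. IL10, an anti-inflammatory cytokine, had log2 ratios of 0.24, 0.68, -0.18, 0.46 and 0.50 in ewes and ran from -0.51 through -0.29 to 0.17 in rams. Ewe replicate 5 lay within the ram range and the others above it, and the difference was 0.55 ± 0.23 (SE; limma adjusted p = 0.356). IL18, a cytokine released by the inflammasome, differed by 0.53 ± 0.25, and by 0.33 and -0.62 on its other probes. CD86, a costimulatory ligand on antigen-presenting cells, differed by 0.89 ± 0.30 on its brightest probe, but by -0.49 on the next. C3, the central complement protein, stood at 0.94 in ewe replicate 4 and between -0.16 and -0.12 in the other ewes, against -0.58 to -0.06 in rams. Its difference was 0.50 ± 0.28, and 0.29 without ewe replicate 4. PTGS1, a cyclooxygenase of prostaglandin synthesis, differed by 0.70 ± 0.30, and PTGER3, a receptor for prostaglandin E2, by -0.96 ± 0.39. PTGER3 differed by -0.52 without ewe replicate 5, which stood at -2.67, and by -0.51 on another probe.

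Among genes with lower values in ewes, INHBA, MIF, GSTM3 and SLIT3 were measured on every array, and none passed the adjusted test. INHBA encodes the beta A subunit that activin A and inhibin A share. Its log2 ratios were -0.80, -1.16, -1.79, -0.30 and -0.99 in ewe replicates 3 to 7 and ran from -0.60 through 0.09 to 0.64 in rams. Ewe replicate 6 lay within the ram range and the other 4 below it. The INHBA difference was -1.12 ± 0.32 (SE; limma adjusted p = 0.160), and a second probe gave -1.11. In untreated right amygdala the same difference was -1.11 ± 0.35 and in treated left amygdala -0.69 ± 0.32.

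MIF, a cytokine that neurons and glia also make, had log2 ratios of 0.02, 0.04, -0.05, -0.35 and 0.13 in ewes. The rams ran from 0.21 through 0.45 to 0.50. No ewe array reached the lowest ram array. The MIF difference was -0.49 ± 0.15 (SE; limma adjusted p = 0.225; exact permutation p = 0.00216). SLIT3, an axon guidance ligand, stood at 0.08, -0.17, -0.34, -0.33 and -0.15 in ewes and at 0.11, 0.49 and 0.86 as the lowest, median and highest in rams. The groups did not overlap, by a margin of 0.11 against 0.08 at the edge. The SLIT3 difference was -0.57 ± 0.21 (limma adjusted p = 0.302), and 7 of its 11 values were shared. A second SLIT3 probe gave -0.45, and on it the groups overlapped. GSTM3, a glutathione transferase, lay between -0.41 and -0.06 in ewes and between 0.19 and 0.34 in 5 rams, with ram replicate 6 at -0.23, and differed by -0.39 ± 0.14. ST3GAL4, a sialyltransferase, differed by -0.36 ± 0.11 (limma adjusted p = 0.214).

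SLC7A5, the light chain of the large neutral amino acid transporter that carries tryptophan and phenylalanine across the blood-brain barrier, had the lowest p of the genes with lower values in ewes. Its log2 ratios were -1.23, -1.44, 0.18, -1.60 and -0.76 in ewes and ran from -0.73 through 0.47 to 0.90 in rams. Ewe replicate 5 lay within the ram range and the other 4 below it. The difference was -1.64 ± 0.37 (SE; limma adjusted p = 0.0655). All 11 SLC7A5 values were shared with other probes and its brightness was 5.61, so its level rests on low signals. From the authors' deposited tables of each group against the pool, the SLC7A5 value was -0.02 in treated ewes and 0.03 in treated rams.

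Genes of the GnRH, gonadotropin and activin axis were mostly dim, and none of 16 was called. The median difference was -0.31, with 4 positive and 12 negative, where 382 of all 701 named genes were negative. At an unadjusted p below 0.05, 2 of the 16 were lower in ewes, against 5.36% of all probes. These were INHBA and ACVR2B, an activin receptor, which stood at 0.07, -0.33, 0.04, -0.26 and 0.01 in ewes and ran from -0.01 through 0.24 to 0.49 in rams. The ACVR2B groups overlapped, and the difference was -0.34 ± 0.15 (SE; limma adjusted p = 0.380). GNRHR, the receptor that goserelin binds, was measured on 3 ewe and 3 ram arrays. Its ewe values were -1.08, -0.51 and 1.39 and its ram values -1.97, -1.65 and 1.90, so the groups overlapped entirely. The GNRHR difference was 1.23 ± 0.82, every value was shared, and another probe gave -0.29. Omitting 1 array gave 0.56 (without ewe replicate 7) to 1.70 (without ewe replicate 4). LHCGR, the luteinizing hormone receptor, differed by -1.12 ± 0.67, with ram values from -2.98 to 2.65, and by -0.60 without ewe replicate 7 or -0.73 without ram replicate 5.

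Sex steroid receptors and enzymes showed no called difference among 12 tested, with 4 positive and 8 negative and a median of -0.10. ESR1, the estrogen receptor alpha, had log2 ratios of -0.66, -1.71, -1.77, 2.40 and 0.44 in ewes and ran from -2.55 through -0.02 to 0.88 in rams. Both groups spread over several log2 units, and the ESR1 difference was 0.17 ± 0.87 (SE). ESR2, the estrogen receptor beta, differed by -0.58 ± 0.67, the progesterone receptor PGR by -0.45 ± 0.77 and the aromatase CYP19A1, which makes estrogen from androgen, by -0.66 ± 1.04. CYP19A1 had values on 2 ewe and 3 ram arrays. HSD11B1, which regenerates cortisol, differed by -0.12 ± 0.28. The oxytocin receptor OXTR, which acts in social behaviour, differed by -0.00 ± 0.64. With these errors a difference of 1 log2 unit could not be resolved for ESR1, ESR2, PGR, CYP19A1 or OXTR. Single arrays moved several of them, with ESR2 at -0.0145 without ram replicate 7, PGR at -0.0590 without ewe replicate 7, CYP19A1 at -0.35 without ram replicate 1 and ESR1 at -0.61 without ewe replicate 6.

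Glutamate genes had mainly negative differences, 8 of 9, with a median of -0.32, and 2 were lower in ewes at an unadjusted p below 0.05, against 5.36% of all probes. GRIA1, an AMPA receptor subunit, had log2 ratios of 0.48, -0.38, -0.43, -0.46 and -0.03 in ewes and ran from -0.02 through 0.31 to 0.83 in rams. Ewe replicate 3 lay within the ram range and the other 4 below it. The GRIA1 difference was -0.50 ± 0.20 (SE; limma adjusted p = 0.332), and a second probe gave -0.51. In untreated right amygdala the median of the list was 0.11, with 5 of 9 positive.

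Of the astrocyte genes, 3 of 5 were positive and 2 were higher in ewes at an unadjusted p below 0.05, against 6.06% of all probes. AQP4, the water channel of astrocyte endfeet, differed by 0.45 ± 0.17 (SE; limma adjusted p = 0.312) and GJA1, a gap junction protein, by 0.58 ± 0.24 (adjusted p = 0.353). Another GJA1 probe gave 0.65, but 2 further ones gave -0.0434 and -0.0155. For both, ewe and ram arrays overlapped. GFAP, the astrocyte filament protein, differed by 0.14 ± 0.28, and the astrocyte glutamate transporters SLC1A2 and SLC1A3 by -0.33 ± 0.28 and -0.23 ± 0.27. In untreated right amygdala AQP4 and GJA1 differed by 0.40 and 0.51. Of the neuron markers and of the GABA list no gene was tested.

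Of the 7 endothelial and pericyte genes, 4 were positive and 3 negative, and of the 17 angiogenic and vascular receptors and factors 11 were positive and 6 negative. TEK, the angiopoietin receptor, differed by 1.38 ± 0.57 (SE) and TIE1, its partner, by 0.97 ± 0.42, with every value of both shared. Another TEK probe gave 0.20 and another TIE1 probe -0.37, and without ewe replicate 3 the differences were 0.88 and 0.61. NRP1, a co-receptor for vascular endothelial growth factor and semaphorins, differed by -0.44 ± 0.25. TGFBR1, the type I receptor for transforming growth factor beta, differed by -0.90 ± 0.38, again with all 11 values shared.

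**Figure D4:**
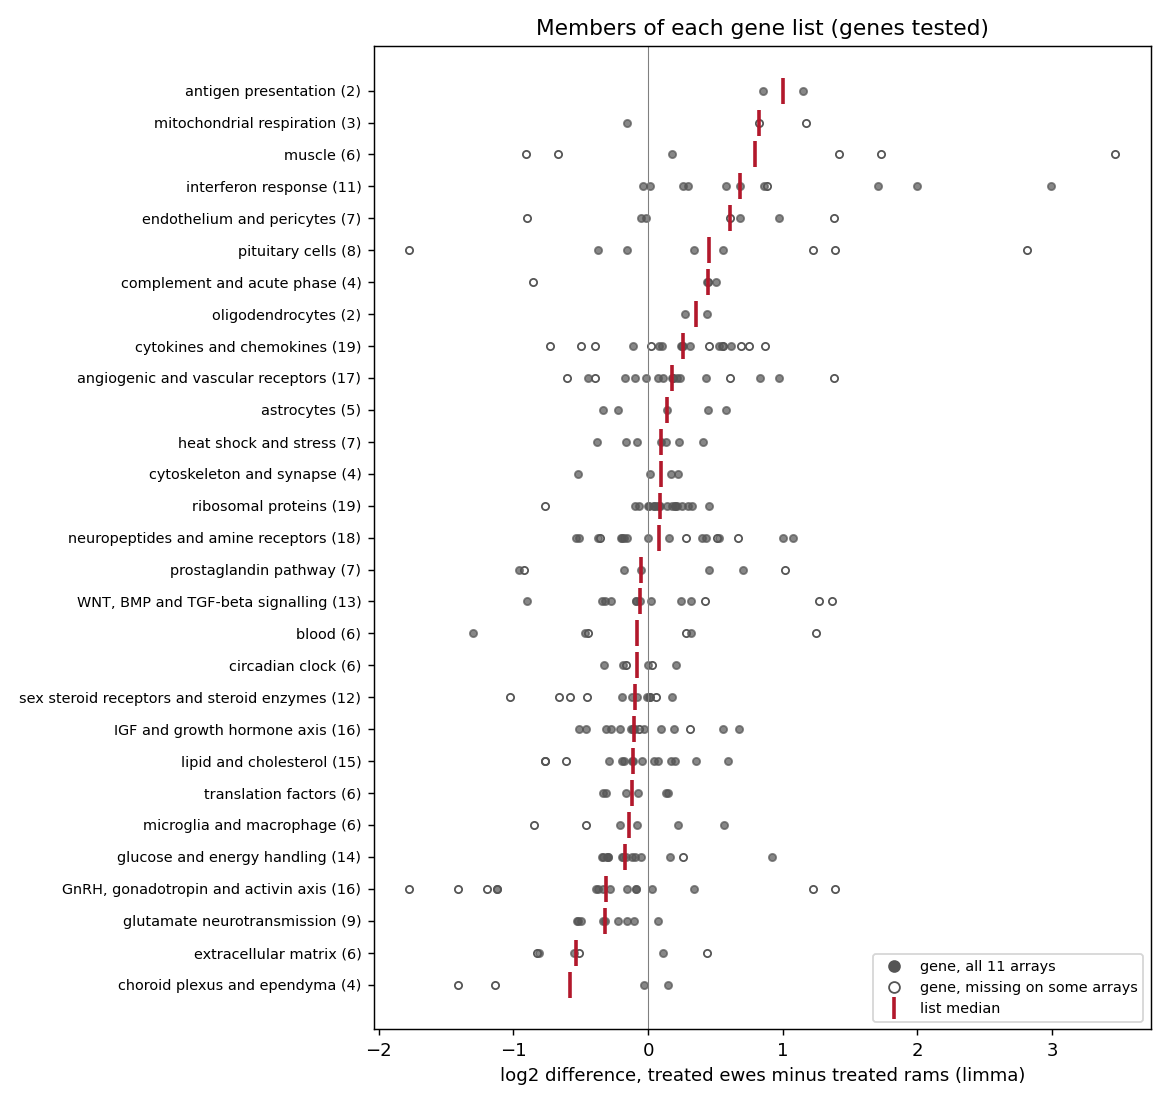
Each point is the log2 difference (ewes minus rams) of 1 tested gene of a list, with open points for genes missing on some arrays and a red mark at the list's median. The interferon response list has a median of 0.68, and the glutamate list one of -0.32.

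Of the genes of energy and lipid handling, SLC2A5 and FABP5 had the lowest p. SLC2A5, a fructose transporter that microglia express, stood at -0.37, 0.85, -0.21, 0.97 and 0.22 in ewes and ran from -1.04 through -0.56 to 0.03 in rams. Ewe replicates 3 and 5 lay within the ram range. The SLC2A5 difference was 0.92 ± 0.31 (SE; limma adjusted p = 0.259), and a second probe gave 1.08. FABP5, a carrier of fatty acids, stood at 0.65, -0.13, -0.01, 0.62 and 0.53 in ewes and ran from -0.42 through -0.24 to 0.33 in rams. The FABP5 difference was 0.60 ± 0.18 (limma adjusted p = 0.175), with ewe replicates 4 and 5 within the ram range. Of 14 glucose and energy genes, 3 were positive and 11 negative, with a median of -0.18, and of 15 lipid genes 6 were positive.

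Ribosomal protein genes, among the brightest on the array, had small positive differences in 15 of 19, with a median of 0.09, and 3 were higher in ewes at an unadjusted p below 0.05, against 6.06% of all probes. RPS25, a protein of the small subunit, stood at 0.21, -0.14, -0.17, 0.48 and 0.17 in ewes and ran from -0.51 through -0.39 to -0.10 in rams. Its difference was 0.45 ± 0.17 (SE; limma adjusted p = 0.298), and -0.02 with all 56 columns as deposited. RPS12, singled out for its separation after the values were seen, lay between 0.19 and 0.49 in ewes and between -0.24 and 0.15 in rams and differed by 0.30 ± 0.14. DNMT1, the maintenance DNA methyltransferase, differed by 0.28 ± 0.11 and CAPN3, a calcium-activated protease, by 0.48 ± 0.21, both chosen in the same way. For DNMT1 the ewes lay between -0.13 and 0.27 and the rams between -0.37 and -0.18. For CAPN3 the ewes lay between 0.27 and 0.91 and the rams between -0.21 and 0.00. A second CAPN3 probe gave 0.24 and a second RPS12 probe 0.31, and on both the groups overlapped.

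Of the 6 circadian clock genes, CSNK1E, a kinase that phosphorylates PER proteins, was lower in ewes by the unadjusted test, at -0.33 ± 0.13 (SE; limma adjusted p = 0.323). BMAL1, a transcription factor at the core of the clock, differed by 0.21 ± 0.15, and by 0.12 without ewe replicate 4. PER1 and CRY1, repressors of the clock, differed by 0.03 ± 0.59 and -0.00 ± 0.26.

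Several of the largest fitted differences belonged to dim genes with values missing on some arrays. MYF5, a muscle determination factor, differed by 3.47 ± 1.09 (SE) on 3 ewe and 2 ram arrays, and POU1F1, a pituitary transcription factor, by 2.81 ± 0.70 on 4 ewe and 2 ram arrays. CHIA, a chitinase, differed by -2.90 ± 0.65 on 3 ewe and 4 ram arrays, by -1.23 without the dye term and by -0.0012 with all 56 columns as deposited. All values of these 3 genes were shared. None passed the adjusted test, with the lowest adjusted p at 0.111 for CHIA. The difference of the plain means of CHIA, at -0.50 ± 0.80 in ewes and 0.77 ± 1.90 in rams (SD), was smaller in size than the fitted one, which comes from a model with terms for dye and animal. The same held for POU1F1, at 1.15 in ewes and -0.38 in rams, for GNRHR, at -0.07 and -0.57, and for LHCGR, at -0.02 and 0.35. The plain means of MYF5 were 1.50 and -1.92. BGLAP, osteocalcin, differed by 1.99 ± 0.51, PTHLH, a parathyroid hormone relative, by 1.63 ± 0.45 and TYR, tyrosinase of pigment cells, by -2.24 ± 0.65, all on shared values. For PTHLH and TYR another probe gave the opposite sign. The pituitary list had a median of 0.45, with 5 of 8 positive, and its brightest gene, LHB, the luteinizing hormone beta subunit, differed by -0.15 ± 0.12.

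The sex difference on the right was set against the one without GnRHa, from 5 ewe and 4 ram arrays of untreated right amygdala in the same fit. No probe was called for the difference between these sex differences (0.0%), with 752 at an unadjusted p below 0.05 and 0.116 as the lowest adjusted p. Among the named genes 42 (5.99%) had an unadjusted p below 0.05, against 5.82% of all probes. CTSS differed by 0.44 ± 0.26 (SE) without and by 1.15 ± 0.24 with GnRHa, and the change was 0.71 ± 0.35 (limma adjusted p = 0.847). RTP4 differed by 0.60 ± 0.39 without and by 1.71 ± 0.36 with GnRHa, and CXCL10 by 0.88 ± 0.78 and 2.99 ± 0.73. The change was 1.11 ± 0.53 for RTP4 and 2.11 ± 1.06 for CXCL10, so neither is shown to depend on treatment. SLC7A5 had the lowest p of the named genes here. It differed by 0.57 ± 0.39 without GnRHa, a change of -2.21 ± 0.53 (limma adjusted p = 0.451). The median of the interferon-response list was 0.03 in untreated right amygdala, with 6 of 11 positive. INHBA and GSTM3 had changes of -0.01 ± 0.47 and -0.01 ± 0.21.

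**Figure D5:**
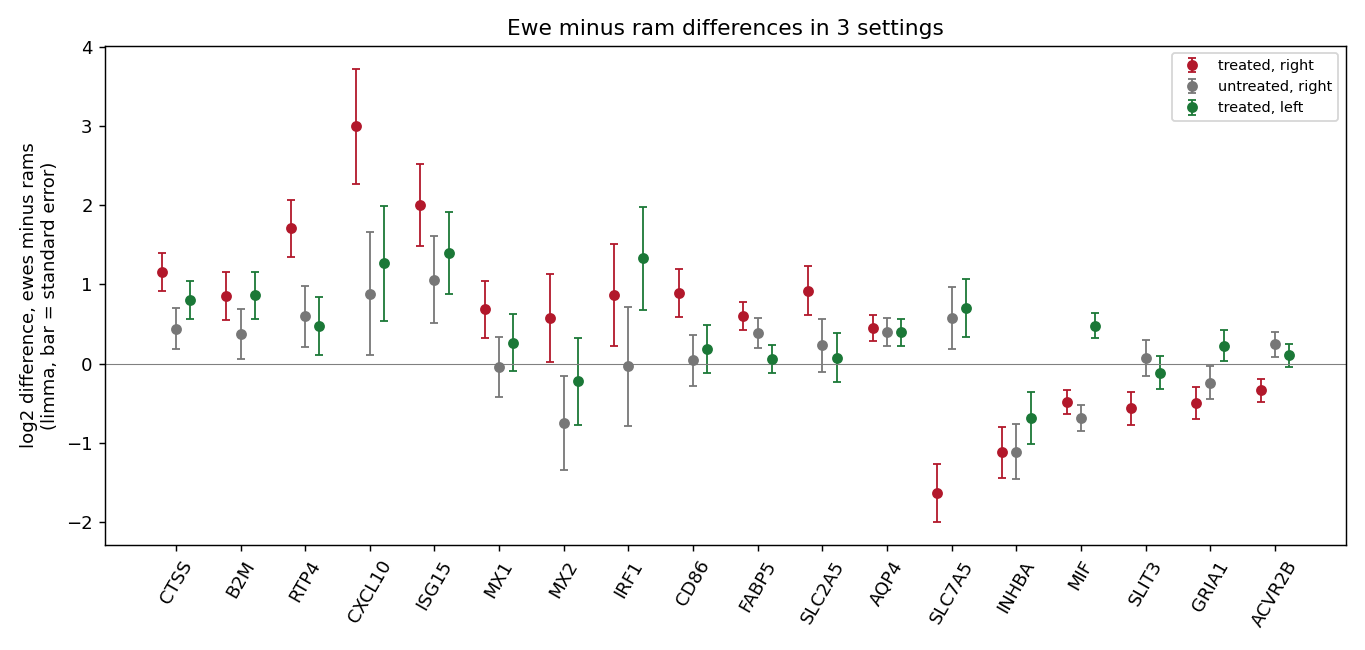
Log2 difference between ewes and rams with its standard error for selected genes in treated right, untreated right and treated left amygdala. INHBA lies below 0 in all 3, and MIF lies below 0 in both right comparisons and above 0 on the treated left.

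The sex difference on the treated right was also set against that on the treated left, from 5 ewe and 6 ram arrays. Here 672 probes were called (5.2%), of which 24 were named autosomal genes (3.42%), 9 with a positive and 15 with a negative change. All ewe arrays of the right were Cy5 and all 5 of the left were Cy3, while the rams held both dyes on both sides. Side and dye thus go together in the ewes, and the dye term rests on the ram arrays. MIF differed by -0.49 ± 0.15 (SE) on the right and 0.48 ± 0.15 on the left, a change of -0.97 ± 0.21 (limma adjusted p = 0.0155). MIF in untreated right amygdala differed by -0.68 ± 0.17. CFL1, cofilin, an actin-severing protein, differed by -0.52 ± 0.31 on the right and 0.98 ± 0.31 on the left, a change of -1.51 ± 0.42 (adjusted p = 0.0368). Without ewe replicate 6 the CFL1 difference on the right was -0.27. ST3GAL4 changed by -0.53 ± 0.15 (adjusted p = 0.0381). SLC7A5, TGFBR1, CHIA, POU1F1, GNRHR and GALR1, a galanin receptor, were also called for this change, with all values of the first 5 shared and 9 of 11 for GALR1. CTSS differed by 0.80 ± 0.24 on the left, a change of 0.36 ± 0.33 (adjusted p = 0.505), and B2M by 0.86 ± 0.30 on the left and 0.85 ± 0.30 on the right.

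The authors' deposited tables give, for each group, a log2 fold change against the pool over the arrays as they used them. In the authors' deposited table, 67 probes passed an adjusted p of 0.05 in treated ewes on the right and 0 in treated rams, where the lowest adjusted p was 0.9998. Of the named autosomal genes 6 passed for ewes in the authors' deposited table, CTSS, INHBA, EIF3A, NFKBIA, VEGFA and LOC100101238. CTSS stood there at 0.57 in ewes (adjusted p = 0.0246 in the authors' deposited table) and -0.09 in rams. INHBA stood at -0.61 and -0.00 in the authors' deposited table, RTP4 at 0.57 and 0.00, ISG15 at 0.79 and -0.15 and CXCL10 at 0.43 and -0.21. MIF stood at -0.03 and 0.20 in the authors' deposited table. Over the 228 genes with every value shared, the median absolute difference between ewes and rams was 0.0431 in the authors' deposited table and 0.578 here, with the same sign for 122. Over the 248 genes with no shared value it was 0.101 in the authors' deposited table and 0.199 here, with the same sign for 191.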

How the data were processed

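Agilent 2-colour arrays were scanned and read with Feature Extraction 9.1, per the submitters' processing notes. Per the file headers the deposited values are log2 ratios. The authors' background correction, normalization and direction are not given in the sources used here, and the medians of the 11 columns lay between -0.025 and 0.023. The authors' deposited tables of each group against the pool hold log2 fold changes, a mean log2 brightness, a score (the moderated statistic), p-values and adjusted p-values.

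Mean ratios of 10 spike-in probes with 20 spots each were regressed on the median of the other columns. Of 56 columns, 41 with an absolute slope of at least 0.5 were kept and 3 of them turned. Control spots were dropped and repeated spots averaged, giving 15008 probes. RefSeq's sheep table (ARS-UI_Ramb_v3.0) served for names and autosomes. It gave 1418 probes 1 gene name, 539 by accession, 452 by current symbol, 241 by old name, 149 by gene number and 37 by synonym. The other 13590 had no single name. No column of unmapped samples was present (0).

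limma 3.58.1 in R 4.3.3 fitted the means of 8 groups on 41 arrays of 25 animals, with dye as a fixed term and animal as a random block (correlation 0.147), over probes with at least 2 values in each group. The test was two-sided, with Benjamini-Hochberg adjustment and a threshold of 0.05. The step was tested on simulated data. Exact permutation tests over 462 splits, Python 3.11.15 and numpy 2.4.6 served for single genes. Each gene had 1 probe, the brightest. The genes named were those past the threshold, up to 12 of lowest p in each direction, the 2 of lowest p in each gene list and fixed genes, 81 in all, plus 6 singled out afterwards. Some genes that this rule takes are not reported here. The genes and 31 lists were chosen with earlier results of these data known. Samples were grouped by their labels, which name the animals. Pairing by replicate number was not used, since those numbers were given in accession order. Alternatives changed the columns kept, the dye term, the block, the scaling, the probe and the arrays.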

Additional observations from a re-analysis of the deposited data

Results flagged for a closer look

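The change of the treated sex difference from right to left passed the test of that change for 9 of the genes named. It was -2.33 for SLC7A5, -4.04 for CHIA, 4.23 for POU1F1, -0.53 for ST3GAL4 and -0.97 for MIF. For TGFBR1 it was -2.39, for GALR1 -1.20, for CFL1 -1.51 and for GNRHR 4.56, with adjusted p between 0.0146 and 0.0389 in limma. Among all 701 named autosomal genes 24 passed (3.42%), against 5.2% of all probes. Many of the genes named were picked by low p of the right difference, which is a part of this change, so their number is not a separate result. In ewes every right array was Cy5 and every left array Cy3, so their sides differ by dye as well, and its part was not tested.

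In 155 groups of arrays tested for a single array far from the others, 7 had one, where chance gives about 1 in 20. Ewe replicate 4 stood apart for C3 (0.945, others -0.157 to -0.118), TLR4 (3.15, others 0.103 to 0.931) and TLR2 (0.804, others 0.298 to 0.414). Ewe replicate 6 stood apart for CFL1 (-0.793, others 0.215 to 0.518). Among rams, replicate 6 stood apart for GSTM3 (-0.228, others 0.193 to 0.337), replicate 1 for UCN (-2.59, others -1.21 to -0.609) and replicate 2 for IRF1 (-2.98, others -0.542 to 0.638). UCN encodes urocortin, a peptide that binds receptors of corticotropin-releasing hormone. Ram replicate 6 is the array that was turned.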

How the results depend on the processing

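No paired analysis was possible because, for the sex difference itself, no twin pair holds both sexes and the replicate numbers were given in accession order. The changes with side and with treatment hold sides of the same animals and some twins. Animal was the random block of the fit. Twin pair was a block only in an alternative, in place of animal, so the fit otherwise treated twins as independent. Probes called for the treated right sex difference were 9, and 0 with all 56 columns, 4 without the turned columns, 5 with their dye as labelled, 4 from the 2 groups alone, 5 without the animal block, 4 with twin pair as block, 127 with array weights, 36 after quantile normalization and 38 after scaling. Leaving out 1 array gave 3 to 23, with 3 without ewe replicate 4, 4 without ewe replicate 7 or ram replicate 1, 2 or 6, 14 without ewe replicate 3 and 23 without ewe replicate 5. Settings added after the data were seen gave 4 without the Cy3 ram arrays and 3 with the Cy5 arrays alone. The named genes called were 0 under each of the first 6 of these settings and both added ones, 8 with array weights, 4 after quantile normalization, 4 after scaling, 2 on completely measured probes (CTSS and RTP4) and 0 to 4 leaving out 1 array. Besides CTSS, RTP4, CXCL10 and ISG15, the genes called under some setting were SLC7A5 (array weights, quantile normalization, scaling, without ewe replicate 5), CHIA (array weights, scaling), INHBA and ST3GAL4 (array weights) and BGLAP (without ewe replicate 5). CTSS differed by 0.79 with all 56 columns (adjusted p = 0.992). The change with treatment had 0 calls, but 1 with array weights and 0 to 1 leaving out 1 array. The change between sides had 672, and 0, 95, 153, 171, 344 and 2224 under all columns, no turned columns, labelled dye, no block, twin block and array weights, and 167 (without ram replicate 7) to 1149 (without ewe replicate 3) leaving out 1 array, with 249 without ram replicate 5 and 388, 321 and 350 without ewe replicates 4, 6 and 7.

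Over 86 genes, 1982 of 2076 alternative values kept sign and side of the threshold, and 62 genes never changed sign. Only CTSS was called as fitted, and it kept its call in 7 of 24 alternatives. The other genes were not called, most of them far from the threshold, so the count of values that kept their side says little. The next brightest probe turned PTHLH (-1.61), TYR (0.70), CD86 (-0.49), ARNT2 (0.37), TGFA (0.87), TIE1 (-0.37), MYOD1 (-0.54), BMP4 (-2.49), GNRHR (-0.29), STAR (1.52) and CRY1 (0.68). All 56 columns turned RPS25 (-0.0193), AQP4 (-0.0228), CD4 (-0.0565), TXNIP (-0.0591), NRP1 (0.14), EIF3A (0.0330), ACTG1 (-0.00788), STAR (0.17), HSD11B1 (0.0286), ESR1 (-0.35), PER1 (-0.50) and CRY1 (0.12). Without the turned columns ESR1 was -0.13, PER1 -0.22 and CRY1 0.0458. With labelled dye PER1 was -0.25 and OXTR 0.14, without a dye term PER1 -0.39, CRY1 0.15 and OXTR 0.12, and after quantile normalization PER1 -0.0563. Without a block CRY1 was 0.00352 and OXTR 0.0498, with array weights 0.0210 and 0.33. OXTR was 0.27 from the 2 groups alone, 0.000215 with the twin block, 0.28 without the Cy3 rams and 0.27 with Cy5 alone. Leaving out 1 array gave -0.0500 to 0.84 for MX2, -0.0353 to 0.43 for CRYAB, -0.61 to 0.57 for ESR1, -0.23 to 0.38 for PER1, -0.15 to 0.29 for CRY1 and -0.41 to 0.40 for OXTR. The causes were not tested, and low signal limits the dim genes.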
